A study of Rattus norvegicus with 46 samples.

Results

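Skin of 3 irradiated rats treated with RTA-408 and biopsied on day -4 was compared with skin of 6 rats biopsied on day -10, before any drug or radiation. These 9 arrays were chosen by their titles out of the 46 arrays of the series, which came from 9 Sprague-Dawley rats sampled repeatedly, and all 23188 features that are not controls, of 24834 on the array, were compared. The irradiated RTA-408 group comprised replicate 1 (rat 324), replicate 2 (rat 323) and replicate 3 (rat 303). RTA-408 was carried in DMSO and injected on days -7, -5, -3 and 0, so that 2 of the 4 injections came before this biopsy, the later one 1 day earlier. Per the labels the injections fell on days of radiation or sham radiation. Radiation of the abdominal soft tissue used a 6 MeV electron beam and summed to 40 Gy in 4 fractions of 10 Gy over 8 days. The day -4 biopsy is therefore a sample taken in the course of treatment, and its dose so far is not stated in the labels. Other groups used here are irradiated skin injected with DMSO alone (vehicle) on day -4, with 3 arrays, unirradiated skin injected with DMSO on day -4, with 2 arrays, and irradiated RTA-408 skin on day 1, with 3 arrays. No group received RTA-408 without radiation, so drug and radiation can be told apart here only against the irradiated vehicle group. Each sample was a 5 mm punch of abdominal skin from which total RNA was taken (100 ng per array, mean RNA integrity number 7.15).

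RTA-408 (omaveloxolone) is a synthetic triterpenoid that blocks KEAP1, the adaptor that otherwise marks the transcription factor NRF2 for degradation, and NRF2 drives genes of glutathione, NADPH and detoxification metabolism. Ionizing radiation breaks DNA and stabilizes p53, which induces genes of cell cycle arrest, apoptosis and repair. In skin, the dividing matrix cells of growing hair follicles, which give rise to the keratin-rich hair shaft, are known for their sensitivity to radiation.

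Signals are log2 values on the deposited scale, which reaches 19.66 to 19.93 per array, so differences are log2 differences on that scale and are not converted to folds. Array medians lay between 6.84 and 6.95, and within groups the arrays correlated at 0.956 to 0.973 across features in the RTA-408 group and at 0.935 to 0.988 in the baseline group. Keratin 14 and the collagen gene Col1a1, which mark epidermis and dermis, were bright on each of the 9 arrays, with lowest signals of 15.88 and 18.69. Arrays of the series fell into 3 sets parted by their spike-in signals, of which the labels say nothing. The 6 baseline arrays and replicates 1 and 2 of the RTA-408 group lay in set I, and replicate 3 lay in set II. Skeletal muscle genes were far lower on 2 arrays than on the others: the mean signal of the muscle list was 6.70 in RTA-408 replicate 1 and 6.57 in baseline replicate 2, against 13.50 to 15.67 in the other 7. Hair keratin genes were low in baseline replicate 4, with a list mean of 11.17 against 13.10 to 14.13 in the other baseline arrays. Rats 324 and 323 had their own baseline arrays (baseline replicates 1 and 2), and rat 303 had none. In whole biopsies, fewer cells of a type and less RNA per cell cannot be told apart, and precision is limited by how few arrays there are.

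Of the 23188 features, 1343 differed between irradiated RTA-408 skin and baseline (5.79%, limma, Benjamini-Hochberg adjusted p under 0.05). Of these, 979 were higher (4.22%) and 364 lower (1.57%), and 4457 features passed an unadjusted p of 0.05. The median difference over all features was 0.01. The counts depended on single arrays. Without replicate 3 (rat 303) 331 features were called, 301 higher and 30 lower. Counts also dropped by over 1.5 times without baseline replicate 1 (847 called) or baseline replicate 3 (894), and the lower features rose to 668 without baseline replicate 4. With each rat as a fixed block, 476 features were called, 341 higher and 135 lower. Across the 9 fits that each left out 1 array, 246 features stayed higher and 20 stayed lower. Through all 18 alternative fits of the full feature set, 101 stayed higher and 5 stayed lower. Signals of the 3 RTA-408 arrays all lay above the 6 baseline arrays for 1568 features (6.76%) and all below for 532 (2.29%). Features both called and without overlap numbered 777 higher (3.35%) and 177 lower (0.763%).

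NRF2 target enzymes were called often. Of 38 members measured, 21 rose, none fell and 17 did not pass, against 4.22% of all features that rose, and the median difference of the list was 1.15. Differences were above 0 for 33 of the 38, and the lowest was -2.01. For 19 of the 38 the RTA-408 arrays all lay above baseline, against 6.76% of all features. The list mean was 11.22, 11.26 and 10.51 in replicates 1 to 3 and 9.24 to 9.63 in the baseline arrays, and in irradiated vehicle skin it was 9.76 to 9.83. The count of 21 stayed between 16 and 22 under all alternatives run, and 13 of the 21 kept their call through all 18 fits.

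Nqo1, the quinone reductase that serves as the standard readout of NRF2 activity, had signals of 12.93, 13.98 and 12.20 in the 3 RTA-408 arrays, against a lowest, median and highest baseline signal of 6.02, 7.30 and 8.02. It was 5.78 ± 0.52 (SE) higher than baseline (adjusted p = 2.91e-09). In rats 324 and 323 it exceeded the rat's own baseline by 6.91 and 6.19. Aldh3a1, an aldehyde dehydrogenase, was at 12.89, 13.84 and 11.27 against 5.97, 7.32 and 8.23 at baseline, a difference of 5.50 ± 0.62 (adjusted p = 3.67e-07). The aldo-keto reductase Akr1b8 was at 12.12, 11.83 and 10.55, while its baseline signals of 5.51, 6.12 and 7.15 were on average at the level of the negative controls. It was therefore at least 5.17 higher (adjusted p = 2.91e-09). The groups did not overlap for any of these 3 genes, and replicate 3 was the lowest of the RTA-408 arrays for each.

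Glutathione transferases conjugate glutathione to reactive compounds. Gsta1 was at 14.36, 13.72 and 12.65 against a baseline of 8.68, 9.54 and 10.70, a difference of 3.92 ± 0.36 (adjusted p = 3.51e-09). Gstm1 was at 12.32, 13.42 and 11.15 against 8.62, 9.47 and 10.18, higher by 2.92 ± 0.33 (adjusted p = 4.63e-07). Of the pair of glutamate-cysteine ligase subunits that start glutathione synthesis, the modifier subunit Gclm rose by 1.66 ± 0.31 (adjusted p = 9.66e-04), from 10.25, 10.86 and 11.09 to 13.47, 12.74 and 11.17. Replicate 3 of Gclm was only just above the highest baseline array. The Gclm call was lost in limma when the 9 compared arrays were fitted alone (adjusted p = 0.0674). The catalytic subunit Gclc, at 11.60, 10.60 and 9.21, overlapped the baseline range of 7.83 to 10.89 and did not pass (0.47 ± 0.52, adjusted p = 0.70). Srxn1, which repairs oxidized peroxiredoxins, rose by 2.31 ± 0.36 (adjusted p = 6.95e-05), with 10.44, 11.04 and 9.46 against 7.52, 8.00 and 8.71.

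Ptgr1, a reductase of leukotrienes and enals, rose by 2.94 ± 0.42, and Adh7, an alcohol dehydrogenase of epithelia, by 4.16 ± 0.73 (adjusted p of 1.79e-05 and 3.40e-04). Hmox1, the inducible heme oxygenase, was at 10.25, 11.13 and 10.73 against 8.95, 9.28 and 10.83 and did not pass (1.14 ± 0.49, adjusted p = 0.18). Thioredoxin reductase Txnrd1 was at 11.55, 10.91 and 10.02, inside the baseline range of 9.63 to 11.45 (0.05 ± 0.36, adjusted p = 0.97). Among the 12 regulators of the KEAP1-NRF2 axis 1 rose, near the 4.22% of all features that did: Nfe2l2, which encodes NRF2 itself. Nfe2l2 was at 12.01, 12.14 and 12.25 against 10.57, 10.88 and 11.23, higher by 1.23 ± 0.18 (adjusted p = 2.60e-05), and its change from baseline in irradiated vehicle skin was 1.26 (adjusted p = 1.74e-05).

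Which of these differences went with the drug rather than with radiation and vehicle was asked of the irradiated vehicle skin. Set against the same 6 baseline arrays, 9 of the 38 NRF2 targets were higher there (6.46% of all features were) and 2 lower (4.26% of all), with a median difference of 0.27. Tested directly against irradiated vehicle skin, RTA-408 skin differed in 11 features (0.0474%), 10 higher (0.0431%) and 1 lower (0.00431%), while 976 passed an unadjusted p of 0.05. Of the 10 higher features, 8 were members of the NRF2 list: Nqo1, Akr1b8, Gsta1, Gstm1, Srxn1, Gclm, Gstp1 and Osgin1. The last 2 and Star, below, fall outside the rule for named genes and were picked after their values were seen. The 2 others were Star, which brings cholesterol into mitochondria for steroid synthesis, and a feature without a gene symbol. The lower feature also had no symbol. Aldh3a1, Adh7 and Ptgr1, called against baseline, did not pass this direct test.

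Against irradiated vehicle, the direct difference of Nqo1 was 3.88 ± 0.60 (adjusted p = 0.00255), with vehicle arrays at 9.36, 8.82 and 9.28. Akr1b8 differed by 3.31 ± 0.55 (adjusted p = 0.00707), Gstm1 by 2.50 ± 0.39 (adjusted p = 0.00255) and Gsta1 by 2.29 ± 0.41 (adjusted p = 0.016). Srxn1, Gclm, Gstp1 and Star differed by 2.06, 1.98, 2.14 and 1.94, with adjusted p between 0.0155 and 0.045. Star was at the negative controls on all baseline arrays. Osgin1, an oxidative stress-induced growth inhibitor, was there too, and on average also on the RTA-408 arrays, so that no size is given for it. The calls rested on few arrays: leaving out RTA-408 replicate 2 or vehicle replicate 2 left 0 called in limma (928 and 1003 at an unadjusted p of 0.05), leaving out RTA-408 replicate 1 or vehicle replicate 1 left 2, and without vehicle replicate 3 there were 7. With quantile normalization 7 were called.

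Gclc and Txnrd1 had negative differences from baseline in irradiated vehicle skin. Gclc was at 8.25, 8.80 and 8.39 in irradiated vehicle skin, below the RTA-408 arrays. These signals lay inside the baseline range only through baseline replicate 4 at 7.83, the other baseline arrays being at 9.95 to 10.89. The difference of Gclc from baseline in irradiated vehicle skin was -1.52 (adjusted p = 0.0536). Its direct contrast of 1.99 ± 0.60 missed the threshold (adjusted p = 0.80). Txnrd1 had a difference from baseline of -1.10 in irradiated vehicle skin (adjusted p = 0.0445), and the direct contrast of 1.15 ± 0.42 missed the threshold (adjusted p = 1.00).

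Promoter sequences of 2 members are shown because they carry the same NRF2-type motif while the genes moved differently, Gclm being called and Txnrd1 not. In RefSeq promoters of build GRCr8, covering 250 bases before to 50 after each listed start, the antioxidant response element core TGACNNNGC was searched on both strands; its letters can overlap those of AP-1 sites. It stood in 12.1% of 33469 promoters. By gene ID 15 of the 21 called list members and 15 of the 17 others matched a promoter, and 6 and 4 of them held the motif. Windows of 120 bases are printed on the gene's strand, with the matched bases in capitals; these match the reverse complement of the motif, from base -172 (Gclm) and -78 (Txnrd1) before the start. Gclm lies at chr2:213031908-213032027 (plus strand) and Txnrd1 at chr7:22755918-22756037 (minus strand).
Gclm: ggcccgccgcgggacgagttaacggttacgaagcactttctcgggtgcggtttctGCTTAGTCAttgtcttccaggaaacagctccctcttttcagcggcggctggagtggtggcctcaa
Txnrd1: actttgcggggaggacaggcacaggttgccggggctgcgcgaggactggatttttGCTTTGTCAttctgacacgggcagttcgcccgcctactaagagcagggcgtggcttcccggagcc

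Damage response genes of the p53 list rose in irradiated RTA-408 skin to about the level of irradiated vehicle skin. Of 36 members measured, 22 rose (4.22% of all features rose) and 1 fell, with a median difference of 0.96. Against the same baseline 21 rose in irradiated vehicle skin (6.46% of all features did), with a median of 0.94. In unirradiated vehicle skin 0 were called (5 of 36 at an unadjusted p of 0.05 in limma). Direct testing of RTA-408 against vehicle called 0 of the 36 members in limma (1 at an unadjusted p of 0.05). With rats as a fixed block 13 of the 22 higher members kept the threshold, and 11 in set I alone. RTA-408 arrays all lay above baseline for 22 of the 36 members, against 6.76% of all features.

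Abcb1b, the drug efflux pump P-glycoprotein, changed most of all named genes that rose. It was at 11.90, 12.37 and 12.50 on the RTA-408 arrays, and at 5.32, 5.55 and 6.77 at baseline, on average the level of the negative controls. It was thus at least 5.96 higher (adjusted p = 3.92e-15). Without the bound its difference from baseline was 6.45, against 7.05 in irradiated vehicle skin, with a direct difference of -0.61 ± 0.40. Ephx1, an epoxide hydrolase that is on both the NRF2 and the p53 list, was at 13.71, 13.57 and 14.09 against 8.18, 8.89 and 9.65, higher by 4.89 ± 0.35 (adjusted p = 1.02e-11) and by 5.08 in irradiated vehicle skin. Mdm2, the ubiquitin ligase that limits p53, was at 12.33, 13.26 and 12.96 against 10.37, 10.68 and 11.21, higher by 2.12 ± 0.25 (adjusted p = 8.56e-07). None of these 3 genes overlapped the baseline.

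Cdkn1a, the p21 inhibitor of cyclin-dependent kinases, was at 14.28, 14.66 and 13.98 against 11.71, 13.04 and 13.25 and rose by 1.53 ± 0.38 (adjusted p = 0.0131). Its call was lost without replicate 2 (adjusted p = 0.0718) and with rats as a block (1.22, adjusted p = 0.183). The call was also lost in limma with the replicate number as a block (adjusted p = 0.0534) and in spike-in set I alone (adjusted p = 0.111). Tp53inp1, an autophagy and cell death regulator, rose by 1.98 ± 0.26 and the mitotic regulator Gtse1 by 1.99 ± 0.26 (both adjusted p = 7.65e-06). The death receptor Fas, at 6.55, 7.59 and 8.13 against a baseline at the negative controls, rose by at least 1.25 (adjusted p = 8.06e-05). Sesn2, a stress sensor, and Perp, a desmosomal p53 target, rose by 1.42 ± 0.27 and 0.88 ± 0.17, and neither passed with rats as a block (adjusted p of 0.108 and 0.104). Tigar, which slows glycolysis, was the 1 member that fell. It fell by at least 0.26, its RTA-408 signals being on average at the negative controls, and lost its call under 13 of the alternatives, among them leaving out replicate 1 or replicate 3 (adjusted p of 0.199 and 0.193).

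**Figure D1:**
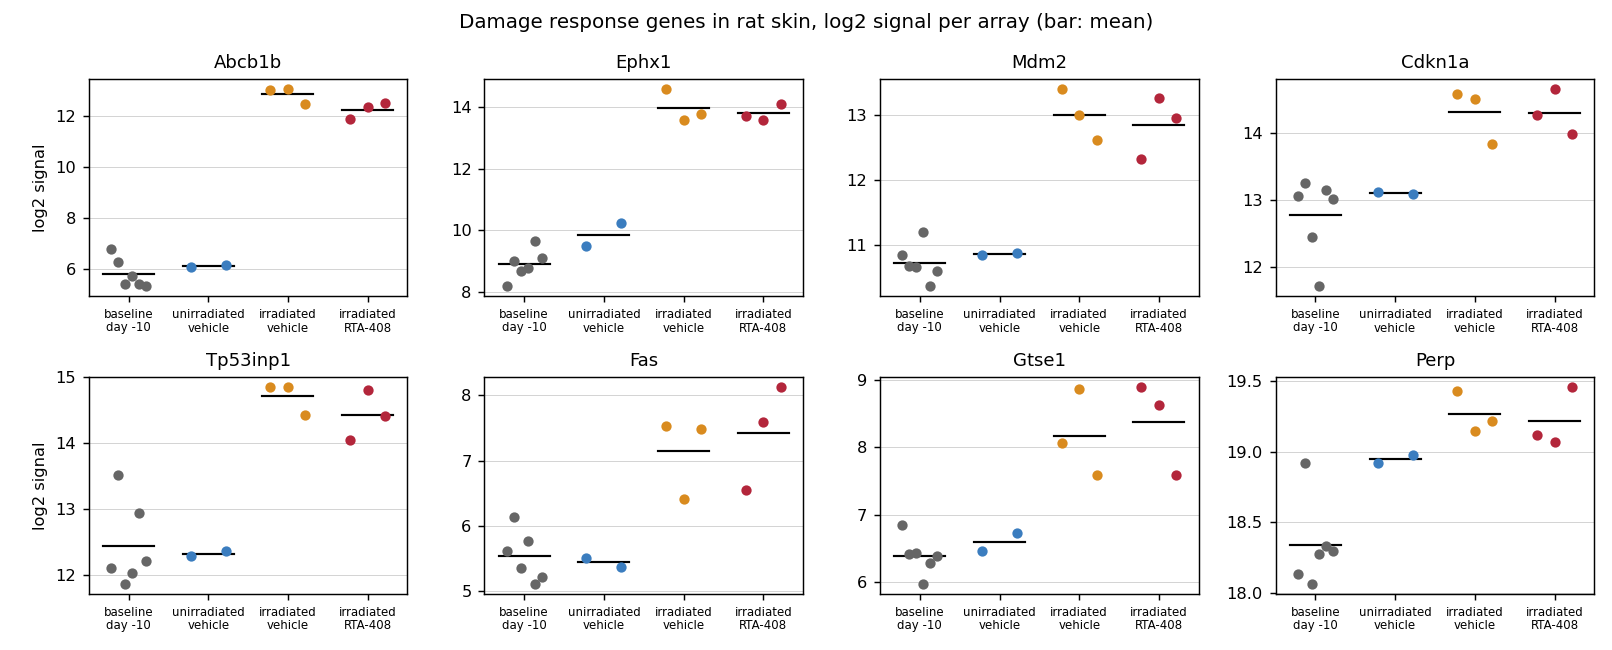
Log2 signal per array of 8 damage response genes in the baseline and day -4 groups, with bars at group means. Abcb1b lies between 11.90 and 12.50 in irradiated RTA-408 skin and between 12.49 and 13.07 in irradiated vehicle skin, against 6.08 and 6.15 in unirradiated vehicle skin.

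Genes of the circadian clock were called in every group of day -4, in differing numbers. In RTA-408 skin 9 of the 15 clock genes measured rose, against 4.22% of all features, and 1 fell, with a median difference of 1.14. In irradiated vehicle skin 9 rose and 2 fell (6.46% and 4.26% of all features). In unirradiated vehicle skin 2 rose and 1 fell (0.0129% and 0.00431% of all features). There 4 features in all were called (0.0173%, with 2115 at an unadjusted p of 0.05 in limma). Those 4 were Dbp, Per2, Bmal1 and a feature without a symbol. The labels give no time of day for the biopsies, and its part in these differences was not tested. Without replicate 3, 4 of the 9 higher clock genes passed, and 4 when the 9 arrays were fitted alone.

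Dbp, a transcription factor that the clock drives with high amplitude, was at 13.92, 14.27 and 14.21 against 8.27, 10.02 and 10.69, higher by 4.39 ± 0.39 (adjusted p = 2.91e-09). Its difference from baseline was 4.32 in irradiated vehicle and 2.59 (adjusted p = 0.017) in unirradiated vehicle skin, and RTA-408 skin exceeded the unirradiated skin by 1.80 (adjusted p = 0.0349). Per2 and Per3, repressors of the clock loop, rose by 1.86 ± 0.25 and 2.41 ± 0.28 (adjusted p of 7.88e-06 and 4.63e-07). Per2 was also 1.85 higher in unirradiated vehicle skin (adjusted p = 0.00505), so that its direct difference there was 0.00 (adjusted p = 0.997). Bmal1, the activator of the loop, fell from 9.08, 9.54 and 10.17 to 7.75, 8.55 and 7.89 (-1.54 ± 0.22, adjusted p = 1.68e-05), and its difference in unirradiated vehicle skin was -1.52 (adjusted p = 0.00799). Activator and repressors of the loop thus moved in opposite directions.

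The nuclear receptor Nr1d1, which represses Bmal1, was at 13.92, 13.94 and 14.66 against 9.93, 12.59 and 13.92, higher by 1.97 ± 0.60 (adjusted p = 0.0454). That call was lost under 6 of the 9 fits that each left out 1 array, with adjusted p up to 0.295 without replicate 3. Tef, a relative of Dbp, rose by at least 1.72 (adjusted p = 2.81e-05), its baseline being at the negative controls.

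Stretches of 3 promoters are printed because they hold motifs through which the clock's own factors are known to act: the E-box CACGTG for Nr1d1 and Tef, and the D-box TTATGTAA for Per2. Both strands were searched. The E-box stood in 6.42% and the D-box in 0.893% of the 33469 promoters. All 10 called clock genes matched a promoter, and 3 held the E-box and 1 the D-box; of the 5 others 4 matched, of which 1 held the E-box and 0 the D-box. Motifs, in capitals, begin at bases -191, -198 and -192 before the start. Nr1d1 is at chr10:84229583-84229702 (minus strand), Tef at chr7:115206577-115206696 (plus strand) and Per2 at chr9:99497122-99497241 (minus strand), 120 bases each.
Nr1d1: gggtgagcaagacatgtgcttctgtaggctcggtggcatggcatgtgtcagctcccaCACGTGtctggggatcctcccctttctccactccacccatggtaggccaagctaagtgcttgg
Tef: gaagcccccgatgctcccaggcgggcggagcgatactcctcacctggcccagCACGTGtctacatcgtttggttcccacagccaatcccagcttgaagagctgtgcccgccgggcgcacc
Per2: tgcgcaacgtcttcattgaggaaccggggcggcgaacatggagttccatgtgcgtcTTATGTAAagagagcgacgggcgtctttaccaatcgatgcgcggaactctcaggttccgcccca

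**Figure D2:**
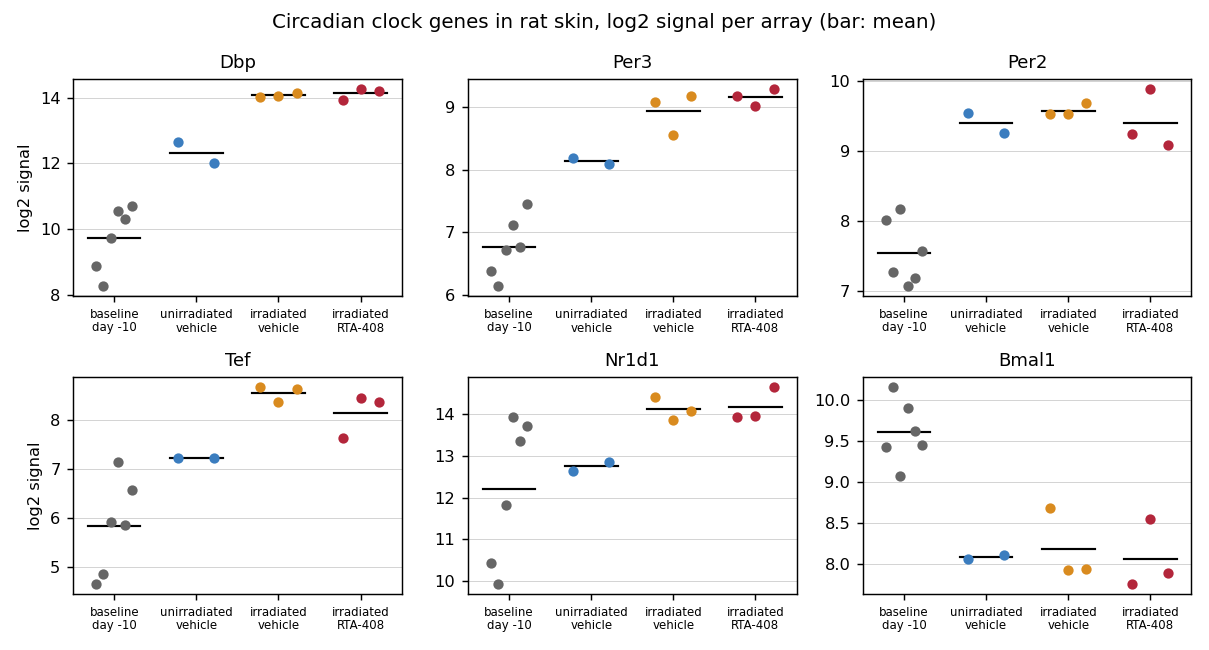
Log2 signal per array of 6 clock genes, with bars at group means. Dbp lies at 13.92 to 14.27 in irradiated RTA-408 skin and at 12.00 and 12.66 in unirradiated vehicle skin, both above the baseline of 8.27 to 10.69, and Bmal1 lies below its baseline of 9.08 to 10.17 in each group of day -4.

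Genes of the hair shaft had the lowest median difference of the 46 lists. Of 14 hair keratins and keratin-associated proteins measured, 11 fell, against 1.57% of all features, with a median difference of -4.71. For 9 of the 14 the RTA-408 arrays all lay below baseline, against 2.29% of all features. The list means were 10.19, 10.05 and 5.12 in replicates 1 to 3, so that replicate 3 was the lowest. In irradiated vehicle skin all 14 fell (4.26% of all features did), with a median of -6.95 and list means of 5.24 to 7.16. RTA-408 replicates 1 and 2 thus lay above each vehicle array, but no member differed directly between RTA-408 and vehicle in limma (0 of 14, with 3 at an unadjusted p of 0.05). Unirradiated vehicle skin had list means of 13.90 to 14.19 and none of the 14 called.

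Krtap31-1, a keratin-associated protein of the hair shaft, was at 4.98, 5.98 and 4.36, the level of the negative controls, against 6.35, 15.58 and 16.58 at baseline. It fell by at least 7.96 (adjusted p = 3.26e-04), although baseline replicate 4, at 6.35, was close to the treated arrays. The type II hair keratin Krt86 was at 15.33, 14.78 and 6.72 against 15.90, 18.43 and 18.59, a difference of -5.63 ± 1.62 (adjusted p = 0.032). Krt35, of the hair cuticle and matrix, was at 13.78, 9.44 and 3.72 against 11.76, 16.01 and 16.33 (-6.39 ± 1.79, adjusted p = 0.0273) and overlapped the baseline. Within each of rats 324 and 323 these genes also lay below the rat's own baseline, with differences of -3.13 and -3.68 for Krt86 and of -2.53 and -6.89 for Krt35.

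Hair calls rested on replicate 3. Without it 1 of the 14 list members was called, Krtap31-1, while Krt86 differed by -2.85 (adjusted p = 0.50) and Krtap1-5 by -3.73 (adjusted p = 0.20). With rats as a block 4 were called. Dsg4, the desmoglein of the hair shaft, was at 12.43, 9.20 and 4.93 against 10.65, 15.26 and 15.63, and fell by 5.59 ± 1.52 (adjusted p = 0.0236, or 0.36 without replicate 3).

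Among 21 genes of hair matrix and inner root sheath 3 fell, against 1.57% of all features (median -3.44): Foxn1, Lef1 and Msx2, transcription factors of the differentiating hair matrix. Foxn1 was at 11.79, 9.42 and 8.11 against 9.83, 13.88 and 14.53 and fell by 3.44 ± 0.90 (adjusted p = 0.0183). Each of these genes overlapped the baseline through its low replicate 4. None kept its call without replicate 3 (adjusted p from 0.263 to 0.404) or without replicate 2 (3 and 14 list members at an unadjusted p of 0.05, limma). The list had 9 lower members without replicate 1, 8 without baseline replicate 4, and 1 without baseline replicate 1, 3 or 6 and with rats as a block. Chac1, an enzyme that breaks down glutathione, fell from 10.10, 13.02 and 13.11 to 8.85, 9.03 and 4.24 (-5.02 ± 0.99, adjusted p = 0.00151, or 0.0877 without replicate 3).

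Among cell division genes, 13 of the 36 mitosis genes measured fell and none rose, against 1.57% of all features, and all 36 had a difference below 0 (median -1.23). List means were 8.74, 7.39 and 6.41 in replicates 1 to 3 against 8.03 to 9.22 at baseline, so that replicate 1 lay within the baseline range and the others below it. In irradiated vehicle skin 21 fell, against 4.26% of all features there, with a median of -1.38. Unirradiated vehicle skin had a median of 0.58 and no call. Tested directly against it, 19 of the 36 were lower in RTA-408 skin, against 2.08% of all features.

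The proliferation marker Mki67 was at 12.83, 10.38 and 8.18 against 11.76, 13.27 and 13.59, a difference of -2.42 ± 0.63 (adjusted p = 0.0183). The polo kinase Plk1 was at 10.37, 8.40 and 7.43 against 9.30, 10.78 and 11.23 (-1.69 ± 0.49, adjusted p = 0.035). Both overlapped the baseline through replicate 1. Cdc20, which activates the anaphase-promoting complex, fell by at least 1.03 with no overlap (adjusted p = 0.00315). Without replicate 3 none of the 13 was called (5 members at an unadjusted p of 0.05, limma), with rats as a block 2, 3 without replicate 2 and 29 without replicate 1. Leaving out baseline replicates 1, 3, 4 or 6 gave 2, 4, 20 and 3. Mki67 then differed by -1.28 without replicate 3 (adjusted p = 0.41). Replicate 3 had the lowest mean of both the mitosis and the hair list, and the part of hair matrix in the lower mitosis signals was not tested.

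Of 31 replication and S phase genes 2 fell (6.45%, against 1.57% of all features), thymidine kinase Tk1 and cyclin Ccne2. The list median was -0.30, and a count of 2 is too small to say much about the list. Of 25 genes of DNA damage sensing and repair 1 fell, the histone H2ax (-1.59 ± 0.49, adjusted p = 0.0453), at 11.15, 9.90 and 8.75 against 10.77, 11.64 and 12.13. None of Tk1, Ccne2 and H2ax kept its call without replicate 3 (adjusted p from 0.308 to 0.455).

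**Figure D3:**
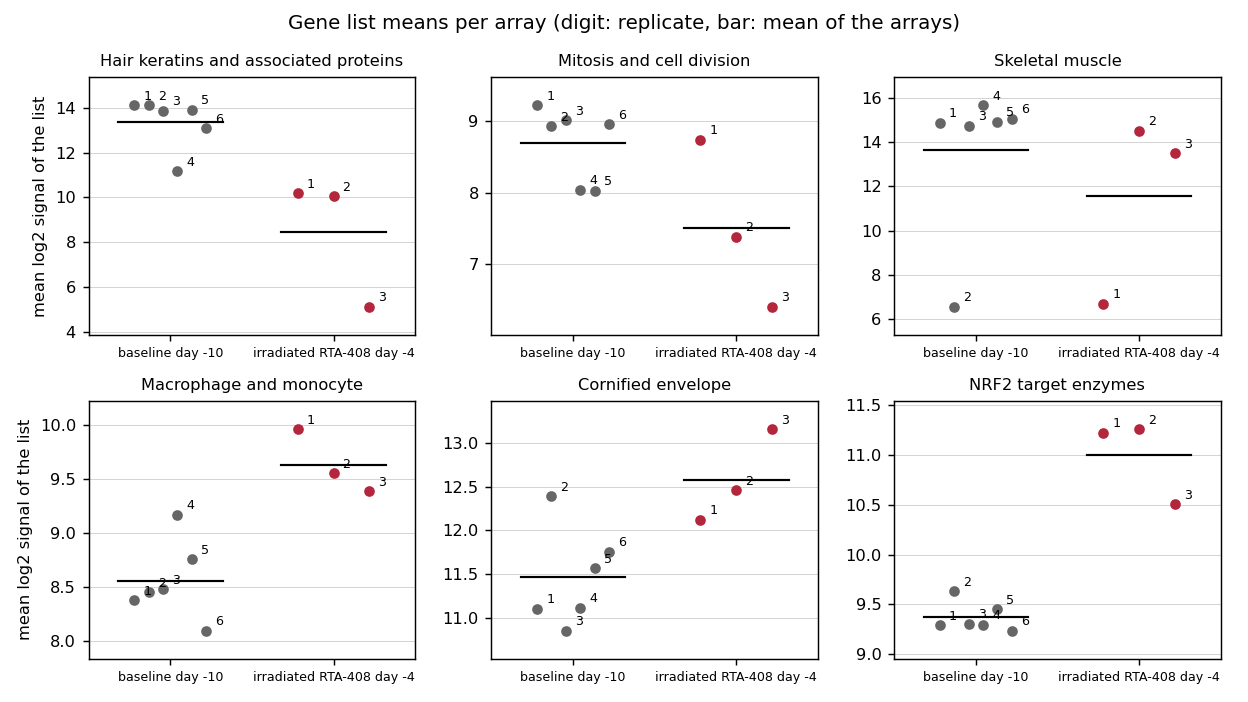
Mean log2 signal over the measured members of 6 gene lists on each of the 6 baseline arrays and the 3 irradiated RTA-408 arrays; digits give the replicate and bars the mean of the arrays. NRF2 target enzymes lie at 10.51 to 11.26 on the RTA-408 arrays and at 9.24 to 9.63 at baseline, hair keratins and mitosis genes are lowest in replicate 3 (5.12 and 6.41), and muscle genes are low in RTA-408 replicate 1 and baseline replicate 2.

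Some genes of the epidermis between the follicles rose. Of 10 genes of basal and interfollicular keratinocytes 4 rose (4.22% of all features rose; median 0.81), of 18 cornified envelope genes 6 (median 1.07) and of 18 epidermal lipid barrier genes 3 (median 0.94). Itgb4, the integrin that anchors basal cells to the basement membrane, was at 13.57, 14.27 and 14.32 against 11.43, 11.77 and 12.58, higher by 2.16 ± 0.28 (adjusted p = 4.25e-06), and it kept its call under all alternatives run. Its partner Itga6 and the laminin chain Lamb3 rose by 0.89 ± 0.20 and 1.47 ± 0.36, and Krt14 by 1.16 ± 0.24 (adjusted p of 0.0063, 0.0123 and 0.003). Without replicate 3 only Itgb4 of the 4 passed.

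In the upper epidermis, Spink5, an inhibitor of the proteases that shed corneocytes, was at 16.85, 17.39 and 17.75 against 14.66, 15.81 and 16.78, higher by 1.66 ± 0.34 (adjusted p = 0.00217). Klk7, one of those proteases, rose by 1.66 ± 0.41, Dmkn by 1.94 ± 0.46 and Hal, the histidase that makes urocanic acid, by 3.03 ± 0.91 (adjusted p of 0.0118, 0.00884 and 0.0414). Alox12b, which oxidizes barrier lipids, rose by 2.52 ± 0.61, and the fatty acid elongase Elovl1 by 1.81 ± 0.36 (adjusted p of 0.00999 and 0.00169). Replicate 3, the array lowest in hair genes, had the highest signal of Alox12b, Hal and Elovl1. Without replicate 3, 1 of the 6 cornified and 0 of the 3 lipid barrier genes were called (6 lipid barrier members at an unadjusted p of 0.05 in limma), and with rats as a block 0 of either (7 and 5 at an unadjusted p of 0.05). Baseline replicate 2 had the highest cornified list mean of the baseline arrays, 12.39, which was above RTA-408 replicate 1 at 12.12. Of the stress keratinocyte list 1 of 19 rose (5.26%), near the 4.22% of all features that did. It was Serpinb2, a serpin of stressed epidermis (2.63 ± 0.51, adjusted p = 0.00138), not called in spike-in set I alone (limma, adjusted p = 0.134).

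Macrophage genes showed a median difference of 1.16 over 33 members, of which 7 rose, against 4.22% of all features. For 15 of the 33 the RTA-408 arrays all lay above baseline, against 6.76% of all features. List means were 9.97, 9.56 and 9.39 against 8.10 to 9.17 at baseline. In irradiated vehicle skin they were 8.48 to 9.17, and 1 member rose and 1 fell there (6.46% and 4.26% of all features did). No member passed the direct test against vehicle (limma, with 2 of 33 at an unadjusted p of 0.05). Cd68, a lysosomal macrophage marker, was at 11.40, 10.96 and 10.98 against 9.01, 9.10 and 10.10 (1.81 ± 0.52, adjusted p = 0.0321), and the complement component C1qc was at 11.71, 10.76 and 10.89 against 8.31, 8.88 and 9.91 (2.07 ± 0.56, adjusted p = 0.0233). The cathepsin Ctss rose by 2.09 ± 0.55 (adjusted p = 0.0197). Without replicate 1, the array poor in muscle, or without replicate 3, 1 of the 7 was called. With rats as a block or without both muscle-poor arrays 1 was called too. In each of these fits it was Lyve1, a gene also of lymphatic vessels that is described next. Leaving out baseline replicates 1, 2, 3 or 6 or RTA-408 replicate 2 left 3 or 4.

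Lyve1, the hyaluronan receptor of lymphatic vessels that some tissue macrophages share, kept its call throughout. It was at 12.56, 11.64 and 11.89 against 7.67, 8.39 and 8.82, higher by 3.74 ± 0.50 (adjusted p = 7.65e-06), and its difference from baseline was 2.28 in irradiated vehicle skin (adjusted p = 0.00248). Ccl21, the chemokine of lymphatic endothelium, rose by 3.23 ± 0.44 (adjusted p = 9.23e-06), from 6.45, 7.20 and 7.64 to 9.41, 10.35 and 11.26, and also kept its call under all alternatives run. Pdpn, which marks lymphatic endothelium as well as other stroma, was called at 1.97 ± 0.57 (adjusted p = 0.0346) but lost the call in 8 of the 9 fits that each left out 1 array. Lyve1 and Pdpn were the 2 called members of the 26 of the endothelial list, whose median was 0.50; 4.22% of all features rose.

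Cytokines and chemokines were called in 8 of 38 cases, all higher, against 4.22% of all features (median 0.28). Besides Ccl21 they included the eosinophil attractant Ccl11 (2.56 ± 0.56, adjusted p = 0.005), the T cell attractant Ccl22 (2.46 ± 0.60, adjusted p = 0.0108), the macrophage growth factor Csf1 (1.59 ± 0.29, adjusted p = 6.33e-04) and the epithelial alarmin Il1a (2.11 ± 0.48, adjusted p = 0.00598). Of these, Ccl11, Ccl22 and Il1a were lost without replicate 3 and with rats as a block, which left 3 and 2 of the 8. In spike-in set I alone Csf1 was lost too (limma, adjusted p = 0.171). Il1b and Il6 were at the level of the negative controls in both groups. Tgfb1 was at 10.44, 10.40 and 10.41 against 9.20, 10.11 and 10.55 and did not pass (0.43 ± 0.38, adjusted p = 0.61).

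Cd80, the T cell costimulator, rose from the level of the negative controls to 8.77, 9.34 and 8.08 (at least 2.54, adjusted p = 3.91e-05). Of lymphocyte markers, 0 of 28 T and NK cell genes and 0 of 10 B and plasma cell genes were called in limma, with 1 and 0 at an unadjusted p of 0.05. None of 31 interferon-stimulated genes was called either (4 at an unadjusted p of 0.05), with a median of 0.23.

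Complement genes were called higher in 5 of 20 cases (median 1.00), against 4.22% of all features. C1s was at 13.70, 13.47 and 13.40 against 11.24, 11.81 and 13.01, and C1r at 13.24, 12.50 and 12.87 against 10.92, 11.06 and 12.20, higher by 1.69 ± 0.36 and 1.60 ± 0.36 (adjusted p of 0.00357 and 0.00578). Cfd, the factor D of fat, rose by 2.13 ± 0.32 (adjusted p = 3.89e-05). Complement calls numbered 3 without replicate 1 or replicate 3 and 2 without both muscle-poor arrays. Among 24 fibroblast and collagen genes 4 rose (median 0.61), and among 22 metalloproteinases and inhibitors 3 (median 0.75). The gelatinase Mmp2 was at 17.70, 17.03 and 17.58 against 14.43, 14.71 and 16.33 (2.50 ± 0.35, adjusted p = 1.89e-05), and decorin, Dcn, a fibroblast proteoglycan, at 19.58, 19.30 and 19.49 against 17.95, 18.09 and 19.15 (1.21 ± 0.20, adjusted p = 2.04e-04). Baseline replicate 4, poor in hair genes, was the highest baseline array for all 4 of C1r, C1s, Mmp2 and Dcn; the part of hair loss in these differences was not tested. Without replicate 3 the fibroblast and metalloproteinase lists each had 1 call. Col1a1 did not pass (0.33 ± 0.25, adjusted p = 0.52).

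Of 30 skeletal muscle genes 2 fell, against 1.57% of all features (median -2.45), Myh7 and Tnnt1 of slow fibers, both on average at the negative controls in RTA-408 skin. Myh7 fell by at least 0.36 and Tnnt1 fell by at least 0.88. Neither kept its call without replicate 1 or without replicate 3. The muscle-poor replicate 1 and baseline replicate 2 set the spread of this list. Of 29 oxidative phosphorylation genes 4 fell (median -0.62), all subunits of respiratory complexes. Ndufv1 was at 10.92, 11.49 and 10.70 against 11.79, 12.09 and 12.23 (-1.03 ± 0.23, adjusted p = 0.00552). Replicate 1 and baseline replicate 2 also had the lowest list means for these genes, 11.15 and 11.32, and the part of muscle content was not tested. Without replicate 3 none of the 4 was called (8 members at an unadjusted p of 0.05, limma), and none with rats as a block (2).

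Further genes at the top of the comparison belong to no list above. Pln, phospholamban, an inhibitor of the calcium pump of the sarcoplasmic reticulum, was at 10.35, 10.87 and 10.86 against a baseline at the negative controls, higher by at least 4.33 (adjusted p = 6.08e-09), while muscle genes as a list were not higher. Gria3, a glutamate receptor subunit, rose by at least 2.22 (adjusted p = 3.51e-09). Without the bound, their differences from baseline were 4.80 and 3.05 in RTA-408 skin and 4.91 and 3.60 in irradiated vehicle skin. Neither gene was called in unirradiated vehicle skin. Slco5a1, a transporter of the organic anion family, fell from 8.79, 9.33 and 10.18 to 6.18, 7.53 and 6.28 (-2.75 ± 0.45, adjusted p = 1.57e-04). Pln, Gria3 and Slco5a1 kept their calls under all alternatives run.

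Against unirradiated vehicle skin of the same day, RTA-408 skin differed in 1069 features (4.61%), 586 higher (2.53%) and 483 lower (2.08%), and this count was 184 without RTA-408 replicate 3 and 115 or 119 without either unirradiated array. Of the 979 features higher than baseline 382 were also higher than in unirradiated vehicle skin, and 182 of the 364 lower ones were lower. Of the same 979 and 364 features, 10 were higher and 0 lower than in irradiated vehicle skin. The same RTA-408 arrays enter these tests and the calls against baseline, so the counts are not independent of those calls. Irradiated vehicle skin differed from the shared baseline in 2486 features (10.7%), 1499 higher and 987 lower.

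**Figure D4:**
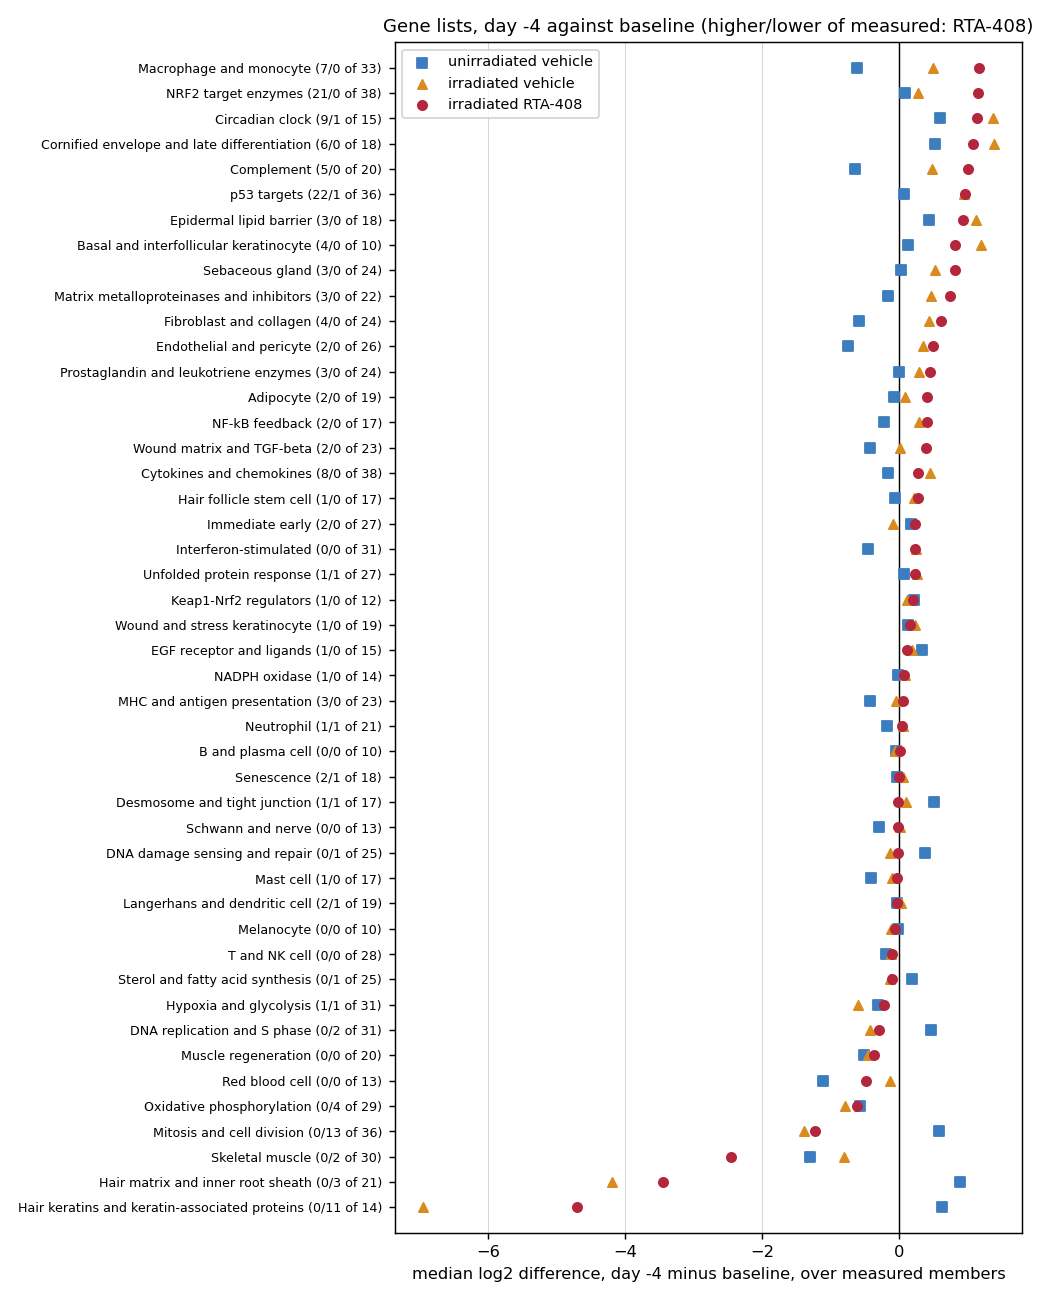
Median log2 difference from baseline over the measured members of each of 46 gene lists, for irradiated RTA-408 (circles), irradiated vehicle (triangles) and unirradiated vehicle (squares) skin of day -4; the numbers give members higher and lower in RTA-408 skin of those measured. All 3 groups are set against the same 6 baseline arrays. The NRF2 list lies at 1.15 with RTA-408 and at 0.27 with vehicle, p53 targets at 0.96 and 0.94, and hair keratins at -4.71 and -6.95.

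RTA-408 skin of day 1, after all injections, was tested directly against day -4. The test called 2 features (0.00863%; 2112 at an unadjusted p of 0.05), 1 higher and 1 lower (0.00431% each): Zbtb16, a transcription factor, was higher on day 1 by 3.18 (adjusted p = 0.0278; named after its value was seen), and a feature without a symbol was lower. The count ranged from 1 to 19 as single arrays were left out, with 19 without day 1 replicate 2 and 8 without day -4 replicate 3. Means of Nqo1 were 13.04, 14.57, 11.88, 12.40 and 10.90 on days -4, 1, 3, 7 and 14, against 7.25 at baseline. Abcb1b had means of 12.26, 14.01, 13.72, 12.24 and 10.55 on the same days. Krt86 went from 12.28 on day -4 to 9.41, 6.95, 5.78 and 7.62, so that the mean of this keratin was highest on day -4 among the 5 days, with no direct call between days -4 and 1 (adjusted p = 0.70).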

How the data were processed

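Total RNA from rat skin was hybridised to 46 one-colour Clariom S arrays, of which 9 form the comparison. The deposited values are log2 signals per feature, normalized between arrays by the authors; background correction, normalization method and scanner software are not given in the sources used here. Of 24834 features 1646 are controls, 1153 of them negative controls, and were left out of the tests. One gene symbol was paired with 15049 features and none with 8139, through the platform annotation; 443 features were identical to another feature.

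Differences were fitted in limma 3.58.1 (R 4.3.3: lmFit, contrasts, eBayes) with means of 16 groups over all 46 arrays, which leaves 30 residual degrees of freedom, and p-values were adjusted by Benjamini-Hochberg over 23188 features. Calls needed an adjusted p below 0.05, and "rose" and "fell" are used for called features. Errors are standard errors of the fit. Where a group lay at the negative controls, whose medians were 5.98 to 6.43 on the 9 arrays, the difference is given as a bound. Replicates are separate rats, but the same rats recur across groups. Pairing comes from the rat numbers in the titles: 2 of the 3 RTA-408 rats have a baseline array. The deviations of the same rat's arrays from their group means correlated at 0.116 and -0.480. Arrays of different rats correlated from -0.498 to 0.567, the highest between the 2 muscle-poor arrays. The same-rat values lie inside that range and cannot show whether pairing is needed. The fit without a block is reported, and the rat block stands beside what it changed. The procedure was tested on simulated data, where 48% of changes of size 1 and 94% of size 2 were recovered among 200 changed features of 23188, with 1 false call. The simulated noise was independent between features and arrays, with no shared effect of rat, tissue content or spike-in set. Its single false call therefore does not measure the error rate of the calls reported here.

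Members and gene lists were chosen with earlier results of these data known. Named genes were the 15 highest and 15 lowest called features with a symbol and no overlap between groups, a panel of 15 genes, up to 6 called members of each list in each direction, and up to 2 uncalled members where none was called; the brightest feature stood for a gene. Promoter sequences came from RefSeq (GRCr8). Alternatives covered quantile normalization, a filter on dim features, array weights, rat, replicate number and spike-in set as blocks, the 9 arrays alone, spike-in set I alone, a minimum difference of 1 and leaving out each array.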

Additional observations from a re-analysis of the deposited data

Results flagged for a closer look

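Baseline replicate 4 stood apart from the other 5 baseline arrays by the gap of its signal relative to the range, a criterion that chance meets in about 1 of 20 groups. It was the lowest for hair genes: Krtap31-1 at 6.35 (others 14.62 to 16.58), Krt35 at 11.76, Krt86 at 15.90, Krt85 at 13.44, Krt81 at 15.64, Dsg4 at 10.65, Lef1 at 7.96, Foxn1 at 9.83 and Msx2 at 8.09. It was also the lowest for Chac1 at 10.10, for Lmnb1, a nuclear lamin, at 11.34 (others 12.57 to 13.24) and for Gclc at 7.83 (others 9.95 to 10.89). It was the highest for the stromal genes C1r at 12.20, C1s at 13.01, Mmp2 at 16.33 (others 14.43 to 14.89) and Dcn at 19.15 (others 17.95 to 18.20).

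Baseline replicate 2, which was poor in muscle, was the highest for the desmosomal gene Perp at 18.92 (others 18.06 to 18.33) and for the growth factor Ereg at 8.66 (others 7.15 to 7.61).

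Differences from the irradiated vehicle group of the same day passed the direct limma test for Nqo1 (3.88), Akr1b8 (3.31), Gstm1 (2.50), Gsta1 (2.29), Gstp1 (2.14), Srxn1 (2.06), Gclm (1.98) and Star (1.94), with adjusted p from 0.00255 to 0.045.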

How the results depend on the processing

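Against 1343 called features (979 higher, 364 lower), array weights gave 2175 with 736 lower, rats as a fixed block 476 (341 and 135), the 9 arrays alone 552 (488 and 64), spike-in set I alone 166 (146 and 20) and a minimum difference of 1 832 (606 and 226). The spike-in set as a block gave 182 lower features. The replicate number as a block, which joins the baseline and RTA-408 arrays of rats 324 and 323 but different rats elsewhere, gave 579 lower features. Leaving out single arrays gave 331 to 1864 called, 301 to 1196 higher and 30 to 668 lower. Against irradiated vehicle, quantile normalization gave 7 of 11 calls and leaving out single arrays 0 to 11; against unirradiated vehicle leaving out single arrays gave 115 to 1355. Between days 1 and -4, the filter on dim features and the replicate number block each gave 1 call, and leaving out single arrays gave 1 to 19. The cause of these shifts was not tested, beyond the fewer arrays or degrees of freedom that some settings leave.

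Of 100 genes followed through the alternatives, 93 were called. With rats as a fixed block 42 lost the call and 56 kept direction and side of the threshold. Without RTA-408 replicate 3, 49 lost the call and 51 kept both. In spike-in set I alone 63 lost the call and 37 kept both. Among those lost there were Csf1, C1r, C1s, Mmp2, Dcn, Bmal1 and Tef. With rats as a random block all 100 kept both, at an estimated correlation of 0.00672. Directions turned only for Txnrd1 and Gclc, neither of them called. Txnrd1 was -6e-04 with quantile normalization, -0.32 with the replicate number block, -0.26 with rats as a block, -0.31 without RTA-408 replicate 1, -0.18 without baseline replicate 4 and -0.17 without both muscle-poor arrays, a setting chosen after seeing the data. Gclc was -0.057 with the replicate number block, -0.12 with rats as a block and -0.091 without RTA-408 replicate 1. Over the 9 fits that left out 1 array, Txnrd1 ranged from -0.31 to 0.46 and Gclc from -0.091 to 1.10.

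Signals at the negative controls give bounds only, and 3 arrays against 6 limit the precision.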

Other observations

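Enzymes of leukotriene and prostaglandin metabolism rose in 3 of 24 cases (median 0.45, against 4.22% of all features higher). The count ranged from 1 (without RTA-408 replicate 3) to 5 (without baseline replicate 4) as single arrays were left out. In spike-in set I alone it was 0 in limma (8 at an unadjusted p of 0.05). Alox5, the 5-lipoxygenase, was at 8.72, 9.35 and 8.62 against a baseline of 5.81, 6.62 and 7.58, higher by 2.22 ± 0.29 (adjusted p = 4.44e-06), and by 1.98 in irradiated vehicle skin. Its activating protein Alox5ap rose by 1.64 ± 0.43 (adjusted p = 0.0175) and Hpgd, which inactivates prostaglandins, by 1.10 ± 0.34 (adjusted p = 0.0466). Of 21 neutrophil genes 1 rose, 1 fell and 19 did not pass, against 4.22% higher and 1.57% lower among all features. Single calls say little about the list. Il1r2, a decoy receptor for interleukin-1, rose by 1.81 ± 0.48 (adjusted p = 0.0203). Padi4, an arginine deiminase, fell by at least 1.66 (adjusted p = 0.00992). Padi4 had a baseline range of 5.85 to 9.39 and overlapped the RTA-408 arrays.

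In the sebaceous list 3 of 24 genes rose, against 4.22% of all features: the membrane glutathione transferase Mgst1 (1.44 ± 0.28, adjusted p = 0.00126), the fatty acid hydroxylase Fa2h (1.04 ± 0.25, adjusted p = 0.0116) and the purine transporter Slc43a3 (1.97 ± 0.36, adjusted p = 6.23e-04). With rats as a block 1 of the 24 was called, 2 without RTA-408 replicate 3 and 0 in spike-in set I alone (limma, 8 at an unadjusted p of 0.05). Of 10 melanocyte, 13 Schwann and nerve and 13 red blood cell genes none was called in limma, with 3, 3 and 1 at an unadjusted p of 0.05.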
